A study of Mus musculus with 2 samples.

Results

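Perineurial-like cells were sought among dissociated mouse dorsal root ganglia by the RNA of Cldn1, which encodes the tight junction protein claudin 1, and Lypd2, which encodes a small cell-surface protein of the Ly6 family. A cell barcode was a member if it held at least 500 genes and under 20% mitochondrial UMIs (unique molecular identifiers, each a captured RNA molecule), lay outside gates for neurons, satellite glia and endothelium, and held at least 2 UMIs of Cldn1 and Lypd2 together. The neuronal gate was 25 or more UMIs of Uchl1, Tubb3, Snap25 and Stmn2 per 10000, the glia gate 40 or more of Fabp7, and the vessel gate 10 or more of Cldn5 and Flt1. In all, 151 barcodes were members, 75 in replicate 1 and 76 in replicate 2, out of 20585 barcodes and 8950 non-neuronal barcodes that passed the filters. They made up 1.69% of the non-neuronal barcodes in each replicate, with exact Clopper-Pearson 95% intervals of 1.33 to 2.11 and 1.33 to 2.10, which cover counting error only.

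The data came from L4-5 dorsal root ganglia of adult wild-type mice aged 8 weeks, digested with Liberase TM, Liberase TL and papain and captured with a 10x Genomics 3′ kit. Both libraries belong to the acetone-ether-water (AEW) group, an itch state, so no untreated animals stand beside them and every comparison was made between classes of barcodes within the libraries. The labelled cell type is neuron, which the members are not, and no label says whether the replicates came from separate animals. The p-values thus rest on how far differences between classes varied between these 2 libraries, a spread that may be technical. The libraries held 113251556 and 102347251 UMIs, shared 24 barcode sequences, and shared none of those of the members.

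The perineurium is a sheath of flattened cells in concentric layers around each bundle of nerve fibres and, as a thin capsule, around sensory ganglia. Its cells are joined by tight junctions, bear a basement membrane on both faces and carry nutrient transporters, so that together with the endothelium of the nerve's own vessels they form the blood-nerve barrier. Claudin 1 is the best known claudin of this sheath, the glucose transporter GLUT1 (Slc2a1) is used to stain it, and Desert hedgehog from Schwann cells acting on its receptor Ptch1 is needed for it to form.

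Cldn1 and Lypd2 did not mark the same barcodes. Of the 151 members, 62 held a Lypd2 UMI, 21 in replicate 1 and 41 in replicate 2, and 52 of these also held Cldn1. The other 89 were members through Cldn1 alone. The median member held 3 UMIs of both genes together in each replicate, and the highest held 59 in replicate 1 and 54 in replicate 2. At the edge of the rule, 28 and 27 members held exactly 2 UMIs, with Slc2a1 at 13.8 and 56.7 CPM (UMIs of a gene per 1e6 UMIs of the group) and Itgb4, the β4 integrin of hemidesmosomes, at 27.5 and 90.7 CPM. Just outside it, 55 and 69 Dcn-positive barcodes held 1 UMI, with Slc2a1 at 20.8 and 30.7 CPM and Itgb4 at 23.8 and 12.8 CPM. These values describe the threshold and carry no test.

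**Figure D1:**
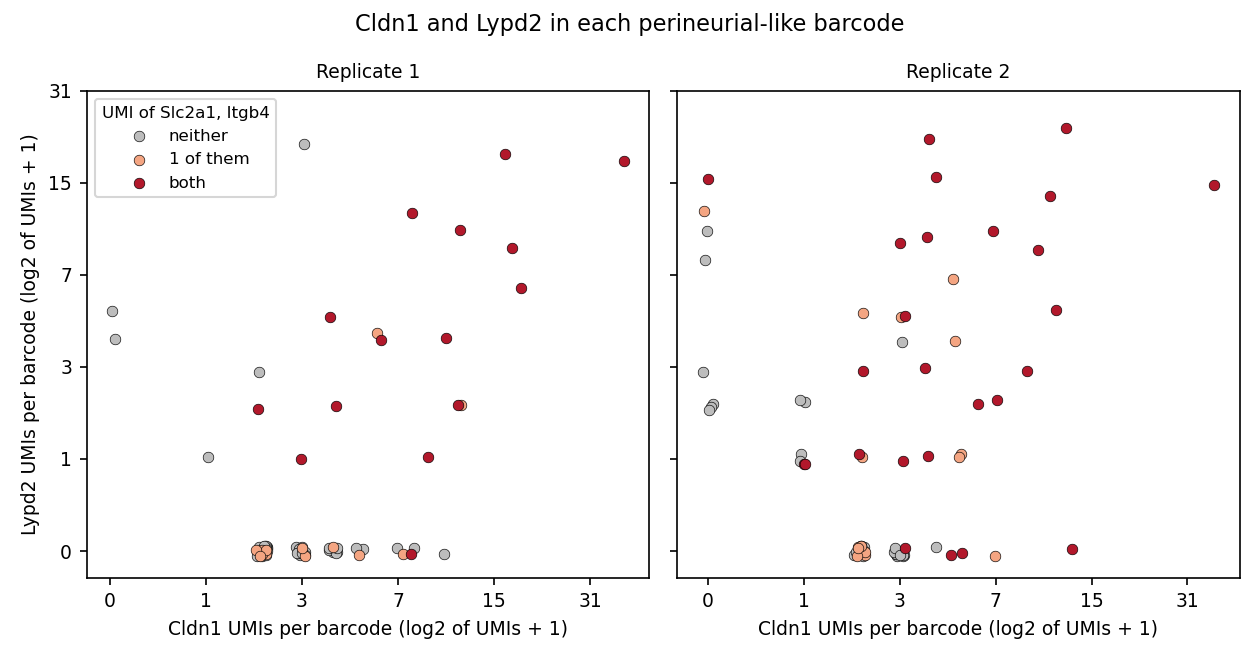
Each point is 1 perineurial-like barcode, placed by its Cldn1 UMIs (x axis) and Lypd2 UMIs (y axis), both as log2 of UMIs plus 1 with slight jitter, with 1 panel per replicate. Colour gives whether a UMI of Slc2a1 and of Itgb4, which the rule did not use, was found: the 41 barcodes with both lie mostly among those with Lypd2, and most of the 89 without Lypd2, along the bottom, have neither.

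The 2 markers given with the label that the rule left unused followed Lypd2. A UMI of Slc2a1 was found in 14 of 21 members with Lypd2 in replicate 1 and 25 of 41 in replicate 2, against 6 of 54 and 8 of 35 members without it. Itgb4 was found in 16 of 21 and 27 of 41 against 7 of 54 and 7 of 35. Among Dcn fibroblasts, with median depths of 6449 and 5368 UMIs, these were 13 of 165 and 36 of 282 for Slc2a1, and 10 of 165 and 11 of 282 for Itgb4. In the vessel gate Slc2a1 was found in 64.0% and 59.8% of barcodes and Itgb4 in 8.77% and 8.99%. In the glia gate these were 26.8% and 33.6%, and 12.9% and 16.9%. In the remaining non-neuronal barcodes they were 8.52% and 11.6%, and 27.7% and 15.1%, all without thinning. Members with Lypd2 were deeper in replicate 1, with a median of 12667 UMIs against 7482.5, but not in replicate 2, with 5887 against 6068. With each barcode thinned to 2000 UMIs, Slc2a1 was found in 47.6% and 42.5% of members with Lypd2 and in 3.77% and 8.57% of members without it, and Itgb4 in 52.4% and 52.5% against 3.77% and 11.4%. Each thinned share comes from 1 random draw, made separately for each group.

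The members were divided into 3 groups by Lypd2 and Dcn, chosen after their values were seen and given without a test. Members with Lypd2 carried Slc2a1 at 194 and 300.2 CPM, Itgb4 at 502 and 536 CPM, the transcription factor gene Klf5 at 648 and 577 CPM, and Stra6, the receptor that takes up retinol, at 461 and 341 CPM. The 69 members without Lypd2 that held Dcn at 20 or more per 10000 UMIs held Itgb4 at 44.2 and 103.8 CPM and Stra6 at 69.5 and 109.6 CPM. In that group the lipocalin Apod stood at 67152 and 33290 CPM, close to the 70137 and 45674 CPM of the Dcn fibroblasts, while members with Lypd2 held 9578 and 3374 CPM. Lum, the collagen-binding proteoglycan lumican, stood at 3520.5 and 2250 CPM in that group against 236 and 290.1 CPM with Lypd2.

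The 21 members with Dcn under 20 formed the third group, and 20 of them lacked Lypd2, while 1 held it and is also counted in the first. They held the glial endothelin receptor Ednrb at 1486 and 1402 CPM, and Apoe at 28207 and 17669 CPM, while Stra6 was at 0 in both libraries. Cd74, the invariant chain of MHC class II, stood there at 1860 and 3208 CPM. In all, 17 and 10 members held markers of another class at a high level, and 12 and 6 of these held Schwann cell markers. In replicate 2, 1 member held 2451 of the 2467 UMIs of the neutrophil genes S100a8 and S100a9. Of the markers given with the label, Slc2a1 and Itgb4 were thus highest in the members with Lypd2. The members with Cldn1 only and Dcn at 20 or more held them above the fibroblast level in both libraries but below those with Lypd2. In replicate 1 the Itgb4 level of the Cldn1-only group rested mostly on 1 barcode with 11 Itgb4 UMIs. No other barcode of that group there held more than 1. The comparisons below use all 151 members.

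**Figure D2:**
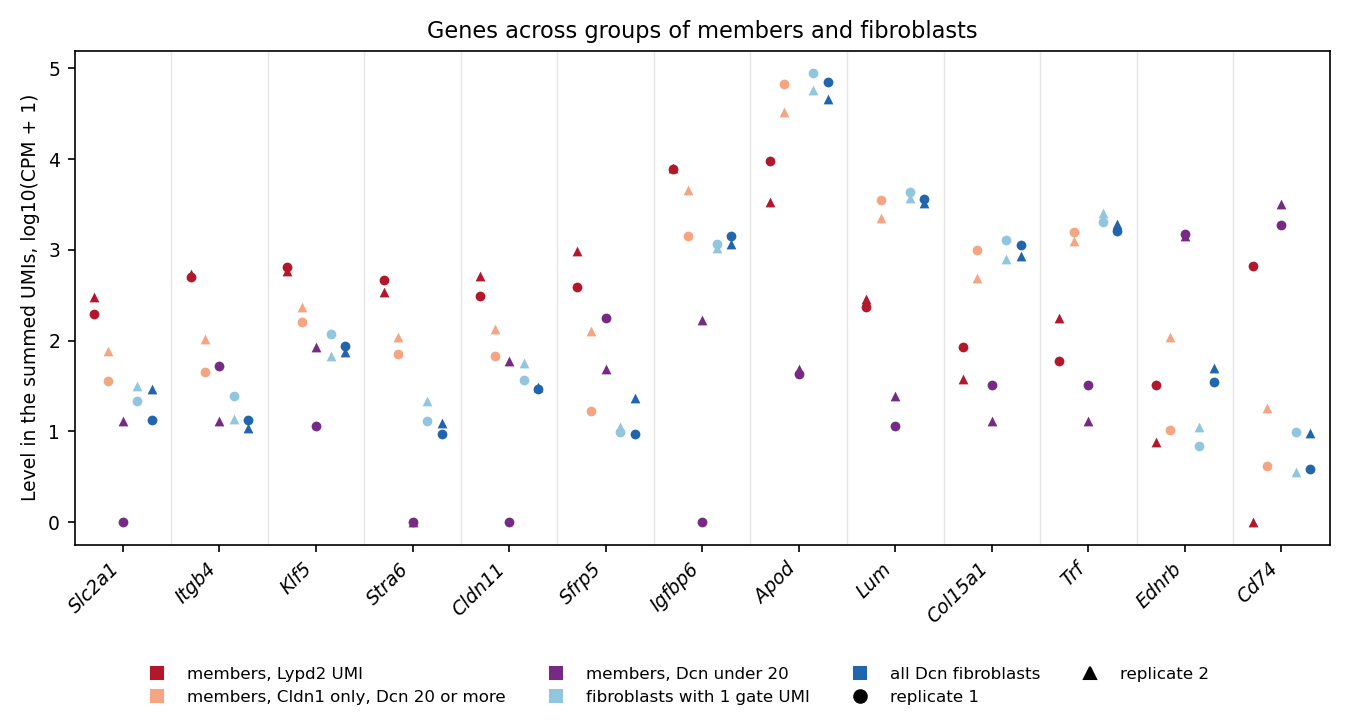
Levels of 13 genes (y axis, log10 of CPM plus 1, in UMIs summed per group and library) in members with Lypd2, members with Cldn1 only and Dcn at 20 or more, members with Dcn under 20, fibroblasts with 1 UMI of Cldn1 or Lypd2, and all Dcn fibroblasts, with circles for replicate 1 and triangles for replicate 2. Slc2a1 to Sfrp5 are highest with Lypd2, Apod to Trf are near the fibroblast level without it, and Ednrb is highest where Dcn is low.

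Each gene of the rule was also compared under a gate that used only the other. Members were first chosen by 2 or more UMIs of Lypd2, and fibroblasts by Dcn and under 2 UMIs of Lypd2. Cldn1 then stood at 699 and 671 CPM in 18 and 31 barcodes against 149.8 and 102.3 CPM. That is a log2 difference of 2.19 ± 0.19 (SE; edgeR, adjusted p = 3.30e-04). With members and fibroblasts split by Cldn1 in the same way, Lypd2 stood at 184 and 383 CPM in 72 and 62 barcodes against 10.1 and 39.7 CPM. The log2 difference was 3.45 ± 0.27 (edgeR, adjusted p = 2.54e-04). The groups did not overlap for either gene. These 2 tests were added after the data were seen. Both genes belong to the rule, so the tests describe how far the 2 genes went together and give no support for the name.

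Dcn fibroblasts were the first class for comparison: 447 barcodes, 165 in replicate 1 and 282 in replicate 2, with Dcn (decorin) at 20 or more per 10000 UMIs and under 2 UMIs of Cldn1 and Lypd2. Itgb4, Itga6, Cldn11, Stra6, Wnt6 and Slc2a1 were among the genes higher in the members, and Eln, Col15a1 and Igf1 among those lower. In most lists of genes a minority was called, as the counts below give. UMIs were summed per class and library, the sums were compared by the quasi-likelihood test of edgeR with a term for each, and a gene was called at a Benjamini-Hochberg adjusted p under 0.05. Of 13971 genes, 176 were called higher (1.26%) and 77 lower (0.551%), counts that include Cldn1 and Lypd2. Of the members, 130 also held Dcn at 20 or more, so most barcodes on both sides held this gene. Leaving out 1 of the 4 sums compared gave 40 to 70 genes higher and 0 to 29 lower, with the extremes at replicate 2 of the members (40 and 0) and replicate 1 of the members (70 and 29). Of the 56 genes called here and named below, 11 were called in all 4 such fits, namely Itgb4, Slc2a1, Itga6, Cldn11, Cgnl1, Stra6, Wnt6, Cd74, H2-Aa, H2-Ab1 and H2-Eb1, and 16 were called in none.

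Perineurial markers came first. Of 12 markers that the rule did not use, 7 were higher and 0 lower, with a median log2 difference of 2.06 beside −0.02 over all genes tested. The list was chosen with earlier results of these data known, so this count is descriptive and no independent support for the name. Fibroblast markers other than Dcn summed to 47908 and 19717 CPM in the members against 92335 and 60658 CPM in the fibroblasts. Of these 6 markers, 1 was called lower and 0 higher. Itgb4 stood at 234 and 324 CPM against 12.2 and 10.1 CPM, a log2 difference of 4.54 ± 0.46 (SE, adjusted p = 0.00170). Slc2a1 stood at 95.5 and 187.5 CPM against 12.2 and 28.1 CPM (2.64 ± 0.29, adjusted p = 0.00232). For both genes every library of the members lay above every library of the fibroblasts. The others called were Krt19, an epithelial keratin (4.06 ± 0.83), the desmosome-associated Perp (2.49 ± 0.40), Klf5 (2.08 ± 0.42), the lactate transporter Slc16a1 (1.49 ± 0.22) and Ptch1 (1.35 ± 0.19). Leaving out 1 sum at a time, Itgb4 and Slc2a1 were called all 4 times, while Krt19 and Klf5 were called in none of them.

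The other 5 markers did not pass, written here with their values. Msln, encoding mesothelin, had 12 UMIs in the members and 0 in the fibroblasts, at least 8.18-fold with the 0 set to a floor of 3 counts for the whole class (adjusted p = 0.121). Tenm2 stood at 428 and 309.5 CPM against 234 and 250.0 CPM, Ntn4 at 96.9 and 49.2 against 144.7 and 98.5, and Casq2 at 22.8 and 18.2 against 1.9 and 6.7. Moxd1 had 4 UMIs against 10. With the gate set on Lypd2 alone (18 and 31 barcodes), Ntn4 was lower by 1.74 on the log2 scale (adjusted p = 0.0104).

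**Figure D3:**
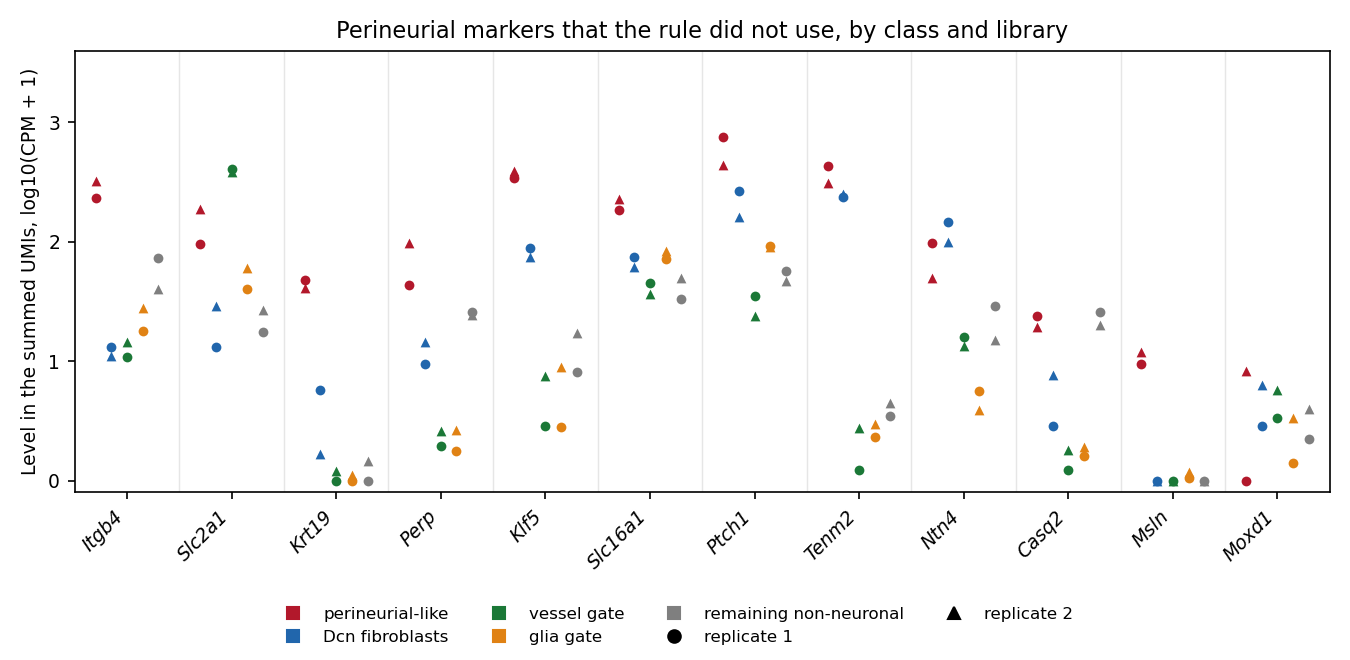
Levels of the 12 perineurial markers not used by the rule (y axis, log10 of CPM plus 1) in UMIs summed per class, with circles for replicate 1 and triangles for replicate 2. Both libraries of the perineurial-like class lie above all other classes for Itgb4, Krt19, Perp, Klf5, Slc16a1, Ptch1 and Tenm2, whereas Slc2a1 is highest in the vessel gate.

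Tight junction genes, which seal the sheath, were higher in 5 of 27 and lower in 0, with a median of 0.22. Cldn11, a claudin of myelin and of the barrier between arachnoid cells, stood at 158 and 319 CPM against 28.2 and 30.2 CPM (2.90 ± 0.30, adjusted p = 0.00172). Cgnl1, the junction adaptor paracingulin, stood at 169.6 and 204 CPM against 61.1 and 61.7 CPM (1.48 ± 0.15, adjusted p = 0.00172). Ildr2, an angulin of tricellular junctions (2.92 ± 0.47), the scaffold Tjp1, which encodes ZO-1 (1.55 ± 0.27), and F11r, the junctional adhesion molecule JAM-A (1.29 ± 0.18), were also called. All 5 remained called without the members that held markers of another class, and with Lypd2 alone as the gate 6 of 28 were higher and 1 lower.

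Of 24 genes of cadherin junctions, desmosomes and hemidesmosomes, 5 were higher and 0 lower, with a median of 0.74. Itga6, the α6 integrin that pairs with Itgb4, stood at 185 and 299 CPM against 14.1 and 18.1 CPM (3.76 ± 0.43, adjusted p = 0.00363). Plec, the plectin that links this integrin to filaments (1.30 ± 0.16), Perp, and Ctnna1, α-catenin (1.12 ± 0.18), completed the 5. The Ctnna1 call was lost without members that held markers of another class (log2 0.85, adjusted p = 0.117). Beyond the lists, Cxadr and Mpzl2, a pair of adhesion molecules of epithelial junctions, were higher by 4.06 ± 0.48 and 3.62 ± 0.53. In the 4 fits with 1 sum left out, Cxadr was called in 3 and Mpzl2 in none.

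Gap junction genes showed 2 of 9 higher. Gjb2, encoding connexin 26, stood at 31.4 and 36.4 CPM against 5.6 and 1.3 CPM (3.30 ± 0.65, adjusted p = 0.0384; 0.0589 without members that held markers of another class). Gjc3, a connexin of glia, was called at 1.49 ± 0.31 but turned to −0.44 (adjusted p = 0.747) without members that held markers of another class. In the basement membrane list 2 of 27 were higher, Nid2 (1.20 ± 0.22), a nidogen, and Dag1 (1.27 ± 0.23), the dystroglycan gene, and Col15a1 was lower. Neither of the higher calls was kept without those members (adjusted p = 0.0629 and 0.279).

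Transport genes were higher in 8 of 55 and lower in 3, with a median of 0.19. Caveolae, the flask-shaped membrane pits that perineurial cells bear in number, were represented by Cav1, at 375 and 603 CPM against 62.0 and 57.6 CPM (2.92 ± 0.46, adjusted p = 0.0163), and by Cav2 (1.82 ± 0.36). Cavin2, a caveolar coat gene outside the list, was higher by 3.41 ± 0.58. In the 4 fits with 1 sum left out, Cavin2 was called in none, and Cav1 and Cav2 in 1 each. The taurine transporter Slc6a6 was higher by 1.93 ± 0.29, beside Slc2a1 and Slc16a1. The 3 lower genes were Trf, transferrin (−1.59 ± 0.29), the glutamate transporter Slc1a3 (−1.43 ± 0.23) and the scavenging receptor Lrp1 (−0.73 ± 0.14). Of 20 glycolysis genes only Ldhb was called, at 0.91 ± 0.18, and not without members that held markers of another class (0.50, adjusted p = 0.311).

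Among secreted signals, Wnt6 had the smallest adjusted p of any gene named that kept its call in all 4 fits with 1 sum left out and without members that held markers of another class. It stood at 221 and 317 CPM against 21.6 and 26.1 CPM (3.35 ± 0.22, adjusted p = 7.52e-05). Sfrp5, a secreted Wnt antagonist, stood at 191 and 569.8 CPM against 8.5 and 22.1 CPM (4.42 ± 0.58). Bmp3 had 75 UMIs against 1, which is 153-fold higher (95% counting interval 26.7 to 6134, which leaves out the spread between libraries). Bmp3 was called in none of the 4 fits with 1 sum left out. Nbl1, a BMP antagonist (1.75 ± 0.24), and Ltbp4, which binds latent TGF-β (1.27 ± 0.20), were higher and Bmp5 (−1.65 ± 0.30) lower, giving 5 of 42 higher and 1 lower. Igfbp6, which binds insulin-like growth factor 2, stood at 3859 and 5682 CPM against 1406 and 1149 CPM and did not pass (1.61 ± 0.62, adjusted p = 0.277). It was at 7821 and 7860 CPM in members with Lypd2.

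Hedgehog genes were called in 2 of 15. Ptch1, the receptor and also a target of the pathway, stood at 749.8 and 435 CPM against 267 and 161.5 CPM (1.35 ± 0.19, adjusted p = 0.0110). Dhh, the ligand, which Schwann cells make, was called at 2.35 ± 0.30, but stood at 468 and 226 CPM in the members with Dcn under 20 and at 10.4 and 6.7 CPM in those with Lypd2. Without members that held markers of another class Dhh was at −0.49 (adjusted p = 0.80). Gli1, another target, did not pass (59.9 and 58.3 against 36.6 and 34.9 CPM).

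The retinoic acid list went different ways, with 1 of 16 higher and 3 lower. Stra6 stood at 221 and 218.5 CPM against 8.5 and 11.4 CPM (4.37 ± 0.40, adjusted p = 8.30e-04), and the groups did not overlap. Aldh1a2, which makes retinoic acid (−2.93 ± 0.56), Cyp26b1, which breaks it down (−1.87 ± 0.40), and the retinoid-responsive Rarres2 (−0.95 ± 0.17) were lower. Cyp26b1 had 0 UMIs in members with Lypd2 in both replicates. None of these 3 lower calls was kept without members that held markers of another class (adjusted p of 0.0589 to 0.109), although their differences stayed below 0. Guidance molecules were higher in 2 of 30, the netrin-like Ntng1 (2.85 ± 0.36) and the ephrin Efnb1 (1.02 ± 0.21). Of 47 transcription factors 2 were called, Klf5 and Nr2f2, which encodes COUP-TFII (1.07 ± 0.19).

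Of 37 genes of the interstitial matrix, 0 were higher and 3 lower, with a median of −0.57. Eln, elastin, stood at 38.5 and 49.2 CPM against 199 and 135.4 CPM (−2.05 ± 0.26, adjusted p = 0.00611), and Col3a1 and Col5a1 were lower by 0.85 and 0.84. Col15a1, a collagen of the zone beside basement membranes, stood at 486 and 174.8 CPM against 1138 and 845 CPM (−1.81 ± 0.28), and at 83.2 and 37.1 CPM in members with Lypd2. Lox, which cross-links collagen and elastin (−1.76 ± 0.26), the growth factor Igf1 (−1.68 ± 0.34), the matricellular Ccn3 (−1.73 ± 0.30) and the methyltransferase Inmt (−2.08 ± 0.41) were also lower. Without members that held markers of another class, Eln, Col15a1, Lox and Ccn3 kept their calls, while Igf1, Inmt, Col3a1, Col5a1, Bmp5, Trf, Slc1a3 and Lrp1 did not, with adjusted p of 0.0797 to 0.198 and the same sign. With Lypd2 alone as the gate Eln and Ccn3 did not pass (adjusted p = 0.0525 and 0.410). Since the fibroblasts were chosen by Dcn, genes that vary with Dcn were in part chosen with it.

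The gate of 2 or more Lypd2 UMIs, at 18 and 31 barcodes, gave more calls on the lower side. It called 240 genes higher and 296 lower, and held 118 of the 176 and 64 of the 77 calls. Lum was then lower by 4.90 (adjusted p = 0.00102) and Trf by 5.87 (adjusted p = 2.00e-04), and Igf1 by 3.11 (adjusted p = 0.00103). Of 37 interstitial matrix genes 10 were lower and 0 higher, of 22 chemokines and cytokines 7 were lower and 0 higher, and of 55 transport genes 12 were higher and 5 lower. The perineurial markers gave 7 higher and 1 lower of 11.

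Genes that mark other cell types were among the higher calls. They included Cd74 (6.37 ± 0.35), H2-Aa (6.29 ± 0.41), H2-Ab1 (5.72 ± 0.32) and H2-Eb1 (5.09 ± 0.39), which encode MHC class II and its chaperone. A total of 2 members in each replicate held a high level of these genes, and a fit without those 4 alone was not run. The fit without members that held markers of another class chose those members in part by Cd74, H2-Aa and H2-Ab1 themselves, so it is no test of these genes. It also left the fibroblasts unfiltered, which lowers the differences of marker genes of other classes in the members. The cytokine Il1b was called at 4.42 ± 0.82 over all members. In that fit 81 genes were called higher and 11 lower, of which 79 and 11 were among the calls over all members, and 6 of the 12 perineurial markers were higher, Krt19 missing the threshold (adjusted p = 0.0670). Schwann cell markers summed to 3321 and 1258 CPM in the members against 1423 and 685 CPM in the fibroblasts, and Sox10, a transcription factor of glia, was among those called higher over all members. Endothelial markers summed to 178 and 180 CPM against 60.1 and 91.1 CPM. Markers of the arachnoid and dural border, the cells that line the meninges, summed to 797 and 1054 CPM against 523 and 455 CPM, with 1 of 9 called higher, Cldn11, 0 lower and a median of 0.82. With Lypd2 alone as the gate 2 of the 9 were higher, with a median of 1.09. The part of these cell types in the results was not tested. Of 6 endothelial markers 0 were called, and Pecam1 stood at 2.9 and 1.8 CPM, while Cdh5 stood at 154 and 143.8 CPM against 45.1 and 30.8 CPM without passing. Of 7 mural markers only Tagln was called, and Myh11 was at 0 and 1.8 CPM.

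**Figure D4:**
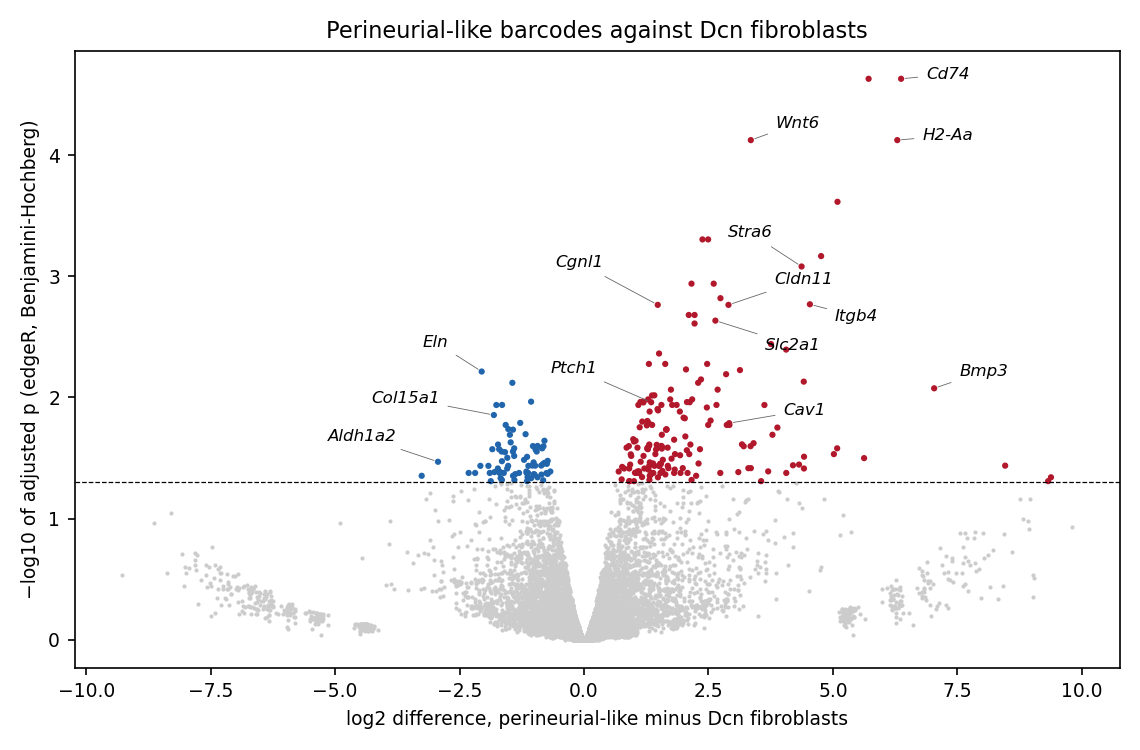
Each point is 1 of the genes tested, apart from those used by the rule, by its log2 difference between perineurial-like barcodes and Dcn fibroblasts (x axis) and −log10 of its adjusted p (y axis), with red for genes called higher, blue for genes called lower and grey for the rest. Cd74 and H2-Aa lie far to the right, and Wnt6, Stra6, Itgb4, Cldn11 and Slc2a1 are among the genes called higher.

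The vessel gate was the second class for comparison, because endothelium is the inner part of the same barrier. It held 909 barcodes. Perineurial-like barcodes and vessels differed in which transporters and junction genes they held, with Slc2a1, Abcb1a and Mfsd2a higher in vessels and Slc6a13, Slc13a4 and Cldn11 higher in the members. Of 13971 genes 2205 were called higher in the members (15.8%) and 2233 lower (16.0%), 31.8% in either direction, so counts within lists are read against these shares. Without replicate 1 of the members the counts were 1397 and 1391.

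Of 55 transport genes 21 were higher and 20 lower. Slc2a1 stood at 95.5 and 187.5 CPM against 403 and 383 CPM in vessels (−1.69 ± 0.22, adjusted p = 2.57e-04), and the groups did not overlap. The efflux pumps Abcb1a, P-glycoprotein (−4.54 ± 0.44), and Abcg2 (−4.54 ± 0.21) were lower, as were Slco1a4 (−7.12 ± 0.44), an organic anion carrier, and Mfsd2a (−6.65 ± 0.37), a lipid carrier of barrier endothelium. Slc39a8, a metal importer, had 2 UMIs in the members against 1774, which is 119-fold lower (counting interval 32.9 to 985). Plvap, a diaphragm protein of leaky vessels, was lower by 6.63 ± 0.70.

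The transporters higher in the members were of another kind. Slc6a13, which takes up GABA and taurine, had 169 UMIs against 2 in vessels, which is 629-fold higher (counting interval 171 to 5237). It stood at 162.5 and 100.1 CPM, beside 43.2 and 42.2 CPM in Dcn fibroblasts. The sulfate carrier Slc13a4 (6.84 ± 0.45) and the cation exporter Slc47a1 (5.44 ± 0.81) were higher too, although Dcn fibroblasts held Slc13a4 at 63.9 and 70.4 CPM, close to the 75.6 and 89.2 CPM of the members. Slc16a1 stood at 183.9 and 227.6 CPM against 44.0 and 35.2 CPM (2.24 ± 0.21). Trf was higher by 5.26 ± 0.35 over all members, but not with Lypd2 alone as the gate (0.98, adjusted p = 0.302).

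Junction genes split likewise. Of 27 tight junction genes 3 were higher and 8 lower in the members, with Cldn5 left out because the vessel gate used it. Cldn11 stood at 158 and 319 CPM against 0 and 1.0 CPM (8.64 ± 0.43), and Cldn22 had 37 UMIs against 0, at least 91.8-fold. Esam (−7.18 ± 0.49) and Jam2 (−2.79 ± 0.22), adhesion molecules of endothelial junctions, Lsr (−3.39 ± 0.46), the angulin lipolysis-stimulated receptor, and Tjp1 (−1.60 ± 0.24) were lower. Connexins differed by type, with Gjb6 at 51 UMIs against 0, at least 127-fold higher, Gjb2 at 42 against 2 (ratio 156, interval 40.7 to 1333), and Gja1, connexin 43, lower by 1.42 ± 0.25. Itgb4 (4.43 ± 0.38), Perp (5.57 ± 0.45) and the mesenchymal cadherin Cdh11 (4.42 ± 0.30) were higher, and Cdh5, VE-cadherin, was lower by 2.53 ± 0.56.

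**Figure D5:**
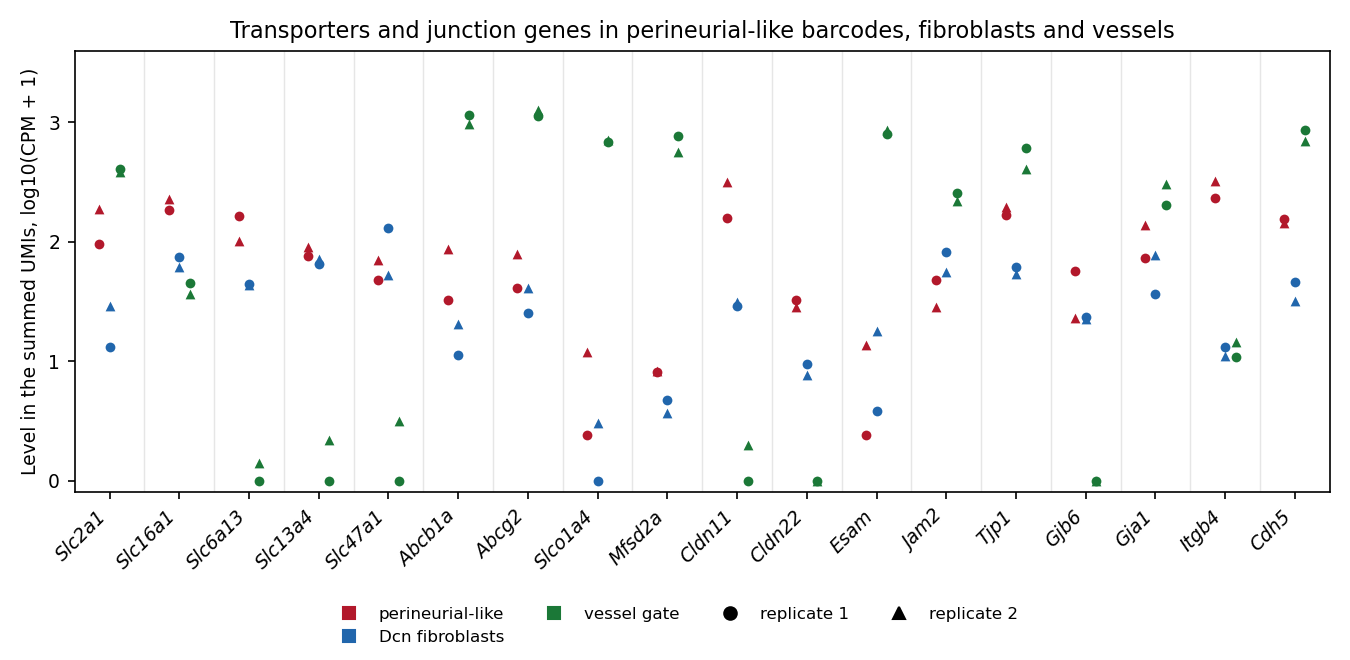
Levels of 18 transporter and junction genes (y axis, log10 of CPM plus 1) in UMIs summed over perineurial-like barcodes, Dcn fibroblasts and the vessel gate, with circles for replicate 1 and triangles for replicate 2. Abcb1a, Abcg2, Slco1a4, Mfsd2a and Esam are highest in vessels, Slc6a13, Cldn11, Cldn22 and Itgb4 are highest in the members, and Slc13a4 is alike in members and fibroblasts.

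The basement membrane differed in its parts, with 12 of 27 genes higher and 8 lower. Smoc2 (6.75 ± 0.45) and Lama2, the α2 laminin of nerve and muscle (4.59 ± 0.20), were higher, and Lama5, the α5 laminin of vessels (−3.30 ± 0.52), was lower. Of 37 interstitial matrix genes 34 were higher and 0 lower. Against Dcn fibroblasts 0 of these 37 were higher and 3 lower, and of the 27 basement membrane genes 2 were higher and 1 lower. Among all genes, Thbs4, thrombospondin 4, had 236 UMIs against 1 (ratio 1757, interval 312 to 69682), Cxadr 109 against 1 (ratio 811, interval 143 to 32340) and Igfbp6 was higher by 8.32 ± 0.85. The endothelial genes Icam2, Mecom, Rbp7 and Edn1 had 0 UMIs in the members against 1490, 1155, 1960 and 929 in vessels, at least 66.7-, 51.7-, 87.8- and 41.6-fold lower.

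The third comparison set the members against all 8352 other non-neuronal barcodes, which are mostly satellite glia, Schwann cells, vessels, mural cells and immune cells. Transcription factor, matrix and hedgehog target genes were higher in the members, and Dcn fibroblasts, which were kept apart from the other barcodes, held several of them at like levels. Of 10784 genes 1255 were called higher (11.6%) and 1274 lower (11.8%), and without replicate 1 of the members 676 and 666. The 3-class fit had 2 residual degrees of freedom.

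Of 44 transcription factors 28 were higher and 5 lower. Foxd1 stood at 378 and 344 CPM against 2.2 and 4.4 CPM (6.72 ± 0.38) and Sox9 at 171 and 81.9 CPM against 0.8 and 2.7 CPM (6.18 ± 0.57), and Dcn fibroblasts held 264 and 175.6 CPM of Foxd1 and 151 and 129.4 CPM of Sox9. Osr2 was higher by 6.64 ± 0.63 over all members, at 51.3 and 41.9 CPM, but stood at 13.9 and 0 CPM in members with Lypd2, below the 117 and 196 CPM of fibroblasts. Klf5 stood at 341 and 389.6 CPM against 3.3 and 9.6 CPM (5.85 ± 0.40). Nr2f1, an orphan nuclear receptor, was lower by 1.57 ± 0.19.

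Hedgehog genes were higher in 9 of 13 and lower in 1. The target genes Gli1 (5.75 ± 0.25), Hhip (4.60 ± 0.41) and Ptch1 (2.95 ± 0.20) were higher in the members. The ligand Dhh was lower, at 69.8 and 43.7 CPM against 217 and 171.7 CPM (−1.82 ± 0.22), and by 4.65 without members that held markers of another class. Of the retinoic acid list 10 of 16 were higher and 1 lower. Stra6 stood at 0.2 and 0.8 CPM in the other barcodes (8.82 ± 0.37, adjusted p = 7.98e-06), and Rbp4, which carries retinol in plasma, was higher by 6.02 ± 0.32. Crabp1, which binds retinoic acid inside cells, had 2 UMIs in the members against 4386 (ratio 43.7, interval 12.1 to 361). Cyp26b1 was higher by 5.36 ± 0.55 over all members and at 0 in those with Lypd2.

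The genes with the largest differences included Thbs4 (9.32 ± 0.44), Igfbp6 (8.03 ± 0.51), Slc6a13 (7.80 ± 0.35), Tenm2 (7.56 ± 0.29), Slc13a4 (7.28 ± 0.25) and Gpc3, a glypican (6.82 ± 0.43). Against Dcn fibroblasts, Tenm2 (log2 0.50, edgeR adjusted p = 0.405) and Igfbp6 (1.61, adjusted p = 0.277) were not called. As given above, Slc13a4 was close to the fibroblast level, while Slc6a13 stood above it in both libraries. Tight junction genes were higher in 10 of 23 and lower in 4, with Cldn11 at 6.75 ± 0.26 and Cgnl1 at 2.35 ± 0.15. Itgb4 was higher by 3.16 ± 0.19 and Perp by 3.15 ± 0.34. Slc2a1 did not pass, at 95.5 and 187.5 CPM against 78.5 and 108.2 CPM (0.49 ± 0.18, adjusted p = 0.0925), and passed with Lypd2 alone as the gate (1.35, adjusted p = 8.56e-04). Hk2, a hexokinase, was the 1 glycolysis gene of 19 that was higher (4.37 ± 0.36), while 8 were lower. Krt19 was the 1 keratin or intermediate filament gene of 7 that was higher (8.60 ± 0.87).

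Of 29 immediate early and dissociation genes, 0 were called in either direction by edgeR against fibroblasts, at a median of −0.03, with 5 at an unadjusted p under 0.05 and 1 called higher by DESeq2. Against the other barcodes 11 of 29 were higher and 0 lower, among them Dusp5 (2.55 ± 0.40) and Fosb (1.36 ± 0.33). Their levels in the ganglion before digestion were not measured. Genes of other cell types were lower, with Hbb-bs of red cells at 38.5 and 1094 CPM against 9418 and 8884 CPM (−6.01 ± 1.26). The microglial and macrophage complement gene C1qb had 3 UMIs (ratio 60.7, interval 20.8 to 294), Pecam1 3 (ratio 32.8, interval 11.2 to 159) and Myh11 1 (ratio 116, interval 20.8 to 4591).

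On build GRCm38, Cldn1 lies on chromosome 16 from 26356642 to 26371841 on the minus strand and Lypd2 on chromosome 15 from 74732247 to 74734329 on the minus strand. Slc2a1 lies on chromosome 4 from 119108711 to 119137983 and Itgb4 on chromosome 11 from 115974709 to 116008412, both on the plus strand. Counts are per gene, and a 3′ library does not show which exons or isoforms they came from.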

How the data were processed

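Single-cell libraries from the ganglia of the AEW group, 2 in number, were used as deposited. The authors deposited a matrix of unnormalized UMI counts with lists of its barcodes and genes, made with CASAVA 1.8 and Cell Ranger 5.0.1 on mm10, per the submitters' processing notes. Neither the annotation release nor the treatment of introns is stated in the sources. Gene positions came from GENCODE release 21 on GRCm38, which matched 31184 of 31253 identifiers. The library UMIs and the interval beside each share give the depth and precision.

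Members and gene lists were chosen with earlier results of these data known. UMIs were summed per class and replicate, so that barcodes were not treated as replicates, and tested with edgeR 4.0.16 (R 4.3.3; filterByExpr, TMM, quasi-likelihood F test, Benjamini-Hochberg adjustment over all genes tested). The first and second comparisons shared a 5-class fit with 4 residual degrees of freedom. The replicate is a library that all classes share, so the library was a term of the model. The procedure was tested on simulated data. Barcodes were thinned with seed 1 in Python 3.11.15. Scrublet at its own threshold marked 1 and 0 barcodes, so the 555 and 1020 highest scores were removed only as an alternative.

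Genes were named by a rule. It took up to 15 called genes a direction with the largest fold, the same sign in both libraries and at least 50 CPM on the higher side, all perineurial markers, and up to 4 called genes a direction from each list at 20 CPM or more. Ctnna1, F11r, Gli1, Igfbp6, Ltbp4, Lum, Abcg2, Tjp1 against vessels and the genes given only for groups of members or as markers of other classes were chosen after their values were seen. Members with markers of another class held, per 10000 UMIs, at least 40 of Schwann cell markers, of S100a8 and S100a9 or of haemoglobin, 10 of C1q genes, 20 of Cd74, H2-Aa and H2-Ab1, or 200 of Apoe. Fibroblasts were not filtered in the same way. That alternative, the one without members with Dcn under 20, and the fits that tested Cldn1 and Lypd2 with the other gene as the gate were chosen after seeing the data, whereas the alternatives with Cldn1 alone or Lypd2 alone as the gate were planned. Other alternatives were another normalization, no filter, DESeq2 1.42.0, no library term, other gates, depth, doublets and leaving out each sum.
Some genes that were measured are not reported here.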

Additional observations from a re-analysis of the deposited data

How the results depend on the processing

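Calls against fibroblasts depended on the settings. They were 448 higher and 299 lower with no filter, 286 and 133 with DESeq2, 414 and 595 with members at Dcn of 20 or more left out, 103 and 16 with members at Dcn under 20 left out, and 81 and 11 with members that held markers of another class left out. With 3 or more gate UMIs 120 were lower, and with Lypd2 alone 296. No replicate block gave 54 higher and 3 lower. Leaving out 1 sum gave 40 to 70 higher and 0 to 29 lower. Against vessels these fits gave 1397 to 1897 higher and 1391 to 1890 lower, Lypd2 alone 1284 higher, and members with Dcn of 20 or more left out 738 and 1245. Against other barcodes they gave 676 to 1148 higher and 666 to 1129 lower, and members with Dcn of 20 or more left out 21 and 77. The share of members, 1.69% in either library, was 1.07% with 3 or more UMIs, 1.71% with at least 1000 genes, 1.50% with Cldn1 alone, 0.546% with Lypd2 alone, 1.73% with high doublet scores removed and 1.39% without members that held markers of another class. A UMI of Slc2a1 was found in 26.7 to 43.4% of members by library, and of Itgb4 in 30.7 to 44.7%, and after thinning in 10.8 and 24% and in 17.6 and 33.3% by library (means 17.4% and 25.5%). All members were thinned in a separate random draw from the groups with and without Lypd2, so those thinned shares do not add up to these.

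Signs of log2 differences turned mostly with members at Dcn of 20 or more left out. That fit kept the group described above by its Ednrb and Apoe RNA, so it differed in content as well as in number of barcodes. With members at Dcn of 20 or more left out, 21 barcodes remained, and against fibroblasts the differences were Casq2 −7.89, Cav1 −1.83, Cav2 −0.46, Cavin2 −9.51, Cgnl1 −2.81, Cldn11 −0.44, Cxadr −7.90, Efnb1 −0.97, F11r −1.35, Gjb2 −7.33, Gli1 −3.05, Igfbp6 −4.82, Ildr2 −8.63, Klf5 −1.27, Ltbp4 −1.94, Mpzl2 −0.35, Nbl1 −2.20, Nid2 −0.054, Nr2f2 −0.30, Perp −1.32, Ptch1 −1.93, Slc16a1 −0.77, Slc2a1 −2.20, Slc6a6 −0.29, Stra6 −8.94, Tenm2 −5.78. Against vessels they were Cxadr −2.60, Gjb2 −3.58, Slc13a4 −5.05, Slc16a1 −0.010, Smoc2 −0.84, Thbs4 −2.70. Against other barcodes they were Cgnl1 −1.84, Cyp26b1 −6.45, Dhh 0.65, Fosb −1.17, Hhip −6.53, Hk2 −8.81, Itgb4 −0.034, Osr2 −5.34, Perp −0.55, Ptch1 −0.21, Rbp4 −8.08, Slc13a4 −5.46, Slc2a1 −4.24, Sox9 −7.18, Stra6 −5.33, Thbs4 −4.64. With Lypd2 alone they were Cd74 −0.74, Dhh −0.24, Gjc3 −1.03, H2-Ab1 −1.40, H2-Eb1 −0.43, Il1b −8.29, Moxd1 0.53 against fibroblasts and Cyp26b1 −6.46 against other barcodes. Without members that held markers of another class they were Cd74 −0.35, Dhh −0.49, Gjc3 −0.44, H2-Ab1 −0.34, H2-Eb1 −0.62, Il1b −8.28, Moxd1 0.025, without those with Dcn under 20 Dhh −0.42, Gjc3 −0.12, and with 3 or more gate UMIs Moxd1 0.27. Leaving out 1 sum put Moxd1 between −6.66 and 0.28. The members with markers of another class were chosen in part by Cd74, H2-Aa and H2-Ab1, so the values of these genes without them follow from that choice. The cause of the other changes was not tested. Fitted values of genes at 0 UMIs in 1 class depend on the prior count and are no bound. Of the genes named against fibroblasts, 56 were called, 11 of them in every fit without 1 sum and 16 in none. Over all named genes and settings, 1785 values kept direction and side of the threshold, 281 lost the call, 16 gained it and 67 reversed direction.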
